A study of Mus musculus with 8 samples.

Results

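Beta-defensins are small, positively charged secreted peptides held together by disulfide bonds between conserved cysteines. Epithelia release them against bacteria and fungi, and some also act on chemokine receptors. In the mouse a large share of the family is known from the epididymis, the duct in which sperm mature, where the peptides coat the sperm surface, and males that lack a group of these genes on chromosome 8 are infertile.

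The beta-defensin genes described here are the genes whose single symbol in the authors' annotation is Defb followed by a number only. There are 20 of them, measured by 22 probe sets, among 20796 named genes and 45037 probe sets in all, and where a gene has several probe sets, the one with the highest mean signal over the 8 arrays stands for it. RefSeq (assembly GRCm38.p6) holds 42 genes with such symbols and lists each of the 20 under the same name. They lie in 5 places: Defb41 on chromosome 1, 4 genes within 57.8 kb on chromosome 2, 6 genes within 299 kb and 8 genes within 172 kb on chromosome 8, and Defb42 on chromosome 14. The 2 groups on chromosome 8 lie 2279 kb apart.

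The arrays measured RNA labelled as abdominal white adipose tissue of adult mice on standard chow, although another label field names the source as liver. There were 4 groups of 2 pools, each pool with RNA from 5 mice: rsl males, wild type males, rsl females and wild type females. The rsl mice were of strain B10.D2.PL with the genotype rsl/rsl, which lacks functional Regulator of sex-limitation (Rsl) genes, zinc finger repressors best known from liver, and the wild type mice were of strain B10.D2 with the genotype Rsl/Rsl. Whether any mouse gave RNA to more than 1 pool is not given in the sources used here, so p-values measure the spread between pools only, and effects of the rsl alleles and of other differences between the strains cannot be told apart.

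Values are log2 signals, and levels of different genes are not compared with each other, because each rests on its own probes. The background of an array was set at the top value among 22 control probe sets with no target, and it lay between 3.73 and 4.01. Median signals were 4.54 to 4.58. Rsl1, the gene that the rsl allele affects, was at 3.98 and 3.83 in rsl males against 4.62 and 5.02 in wild type males, and 3.56 and 3.69 in rsl females against 5.09 and 5.25 in wild type females, lower in rsl in either sex. The 11 measured adipocyte genes (such as Adipoq and Lep) averaged 11.37 and 11.93 in rsl males, 11.91 and 12.04 in wild type males and 11.997 to 12.07 in the 4 female pools, so transcripts of fat cells were bright in all 8. They were not shown to be equal. Differences of rsl minus wild type males ran from -1.07 to -0.04 over the 11. Male minus female differences in rsl mice ran from -1.30 to -0.05, the lowest being that of Pparg (limma adjusted p = 0.0171).

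Promoter sequences of 4 members are shown because they stand for the patterns described below. Defb41 and Defb15 were high in both rsl male pools and much lower in wild type males, Defb42 was bright in 3 of 4 male pools, and Defb3 was not above background in any pool. Each runs 5′ to 3′ on the gene's strand, from 250 bases before to 50 after the RefSeq transcript start (GRCm38.p6), and lies at chr1:18265089-18265388 on the minus strand for Defb41, chr8:21932661-21932960 on the minus strand for Defb15, chr14:63046741-63047040 on the plus strand for Defb42 and chr8:19293111-19293410 on the plus strand for Defb3. Capitals mark matches on either strand to TATAAA, to AGAACA (on the other strand TGTTCT), the core of steroid hormone response elements, or to AGGAAG (on the other strand CTTCCT), a site read by PEA3 factors of the epididymis.
Defb41: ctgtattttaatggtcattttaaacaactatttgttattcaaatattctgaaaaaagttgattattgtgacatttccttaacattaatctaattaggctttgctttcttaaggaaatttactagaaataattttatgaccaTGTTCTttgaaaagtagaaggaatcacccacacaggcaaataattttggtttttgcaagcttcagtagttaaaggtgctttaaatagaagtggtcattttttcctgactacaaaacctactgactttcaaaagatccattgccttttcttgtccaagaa
Defb15: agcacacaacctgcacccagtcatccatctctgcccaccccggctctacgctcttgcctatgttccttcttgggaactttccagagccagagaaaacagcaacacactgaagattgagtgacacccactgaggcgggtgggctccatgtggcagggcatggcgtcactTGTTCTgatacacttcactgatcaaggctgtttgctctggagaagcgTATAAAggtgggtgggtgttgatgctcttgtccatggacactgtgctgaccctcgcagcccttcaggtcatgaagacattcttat
Defb42: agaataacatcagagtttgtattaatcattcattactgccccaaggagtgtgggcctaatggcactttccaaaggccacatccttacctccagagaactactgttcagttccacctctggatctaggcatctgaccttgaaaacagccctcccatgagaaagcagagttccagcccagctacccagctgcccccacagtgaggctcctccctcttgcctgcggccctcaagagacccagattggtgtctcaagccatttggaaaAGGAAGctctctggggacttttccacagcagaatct
Defb3: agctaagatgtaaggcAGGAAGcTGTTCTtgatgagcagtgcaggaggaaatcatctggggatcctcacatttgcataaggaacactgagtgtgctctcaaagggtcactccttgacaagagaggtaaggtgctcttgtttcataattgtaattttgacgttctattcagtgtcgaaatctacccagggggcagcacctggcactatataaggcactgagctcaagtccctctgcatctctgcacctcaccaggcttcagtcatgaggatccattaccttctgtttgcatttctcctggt

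RefSeq promoters were found for 15 of the 20 members, 16 sequences in all, and none was in the table for Defb1, Defb2, Defb4, Defb19 and Defb35. The letters AGAACA were in 8 of the 16, those of Defb3, Defb7, Defb8, Defb10, Defb11, Defb15, Defb21 and Defb41, against 18.98% of 32841 promoters of the same length. Of the promoters with AGAACA, 3 belong to members that stayed at or below background in all 8 pools. AGGAAG was in 6 of 16, against 35.4% of all promoters. TATAAA was in 2 of 16, those of Defb15 and Defb7, against 13.6% of all promoters. The full element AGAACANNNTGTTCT was in 0 of 16 and in 0.009% of all promoters. The searched letters do not overlap as motifs, and a match describes the sequence only.

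Bright beta-defensin signals were found in male pools only, and mostly in 3 of the 4. The number of members above background was 14 and 13 of 20 in rsl males against 13 and 8 in wild type males, and 7 and 2 in rsl females against 5 and 1 in wild type females. Of all probe sets, 68.3% and 67.7% were above background in rsl males and 68.9% and 71.0% in wild type males. In the female pools it was 62.8% to 69.2%. The counts in rsl males and wild type male 1 were thus near the share of all probe sets. With a margin of 1 log2 unit over background, the number of members was 12 and 11 in rsl males, 12 and 2 in wild type males, and 0 in each of the 4 female pools. Wild type male 2 therefore resembled the female pools more than the other male pool of its group in this count. The share of all probe sets at this margin is not given here, so these counts are compared between pools only. In a bulk sample, fewer cells of a type and less RNA per cell cannot be told apart.

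**Figure D1:**
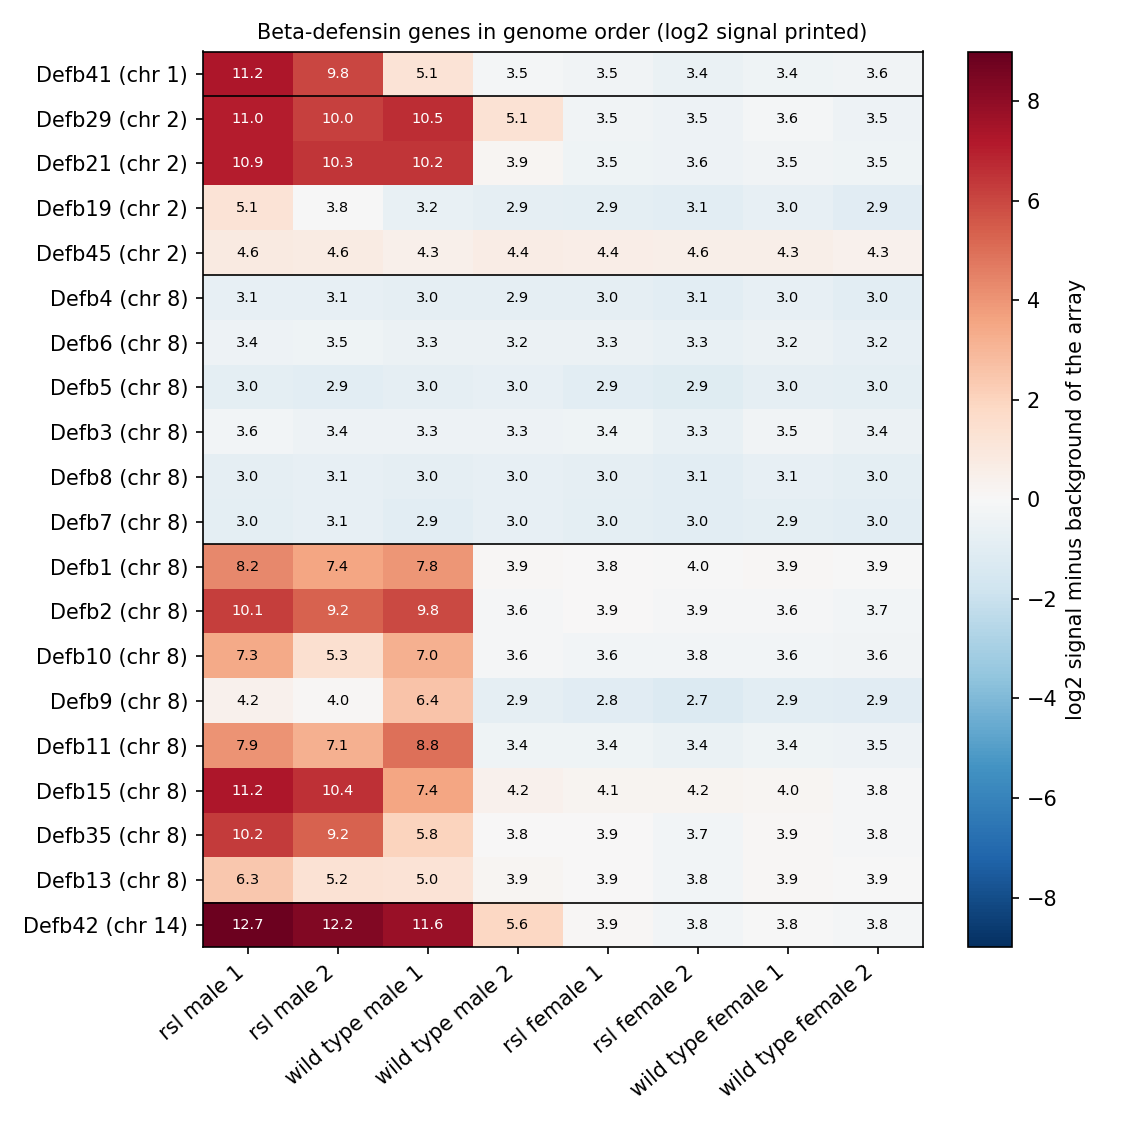
Log2 signal of the 20 beta-defensin genes (rows, in genome order, with lines between gene groups) in the 8 pools (columns), printed in each cell and coloured by its difference from the background of the array. Bright cells fill the columns of rsl male 1, rsl male 2 and wild type male 1, while the 6 genes of the first chromosome 8 group stay between 2.89 and 3.62 in all 8 pools.

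Defb41, an epididymal beta-defensin, had the sharpest contrast between the strains. It was at 11.15 and 9.85 in rsl males against 5.07 and 3.53 in wild type males, and 3.49 and 3.40 in rsl females against 3.41 and 3.58 in wild type females. Only 3 pools were above background, both rsl male pools by a wide margin and wild type male 1 by less. Its nearest measured neighbour on chromosome 1 is Crisp4, a sperm-coating protein of the epididymis that lies 105 kb away. Crisp4 was at 11.01 and 10.06 in rsl males against 9.22 and 3.88 in wild type males, and 3.93 and 4.13 in rsl females against 4.04 and 3.89 in wild type females, so it was bright in wild type male 1, where Defb41 was not.

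On chromosome 2, Defb29 and Defb21, both known from the male reproductive tract, were bright in 3 male pools. Defb29 was at 10.96 and 9.99 in rsl males against 10.48 and 5.06 in wild type males, and 3.51 and 3.54 in rsl females against 3.59 and 3.46 in wild type females. Defb21 was at 10.93 and 10.28 in rsl males against 10.23 and 3.92 in wild type males, and 3.45 and 3.56 in rsl females against 3.46 and 3.53 in wild type females. In wild type male 2, Defb29 kept a low signal over background and Defb21 lay just over it. Defb19, first described in the testis, was dim: it was at 5.12 and 3.80 in rsl males against 3.17 and 2.92 in wild type males, and 2.91 and 3.06 in rsl females against 3.03 and 2.93 in wild type females, and only rsl male 1 was above background. Defb45 was the 1 member above background in all 8 pools, by at most 0.78 log2 units, with 4.64 and 4.61 in rsl males against 4.29 and 4.37 in wild type males, and 4.45 and 4.57 in rsl females against 4.31 and 4.28 in wild type females. Of the genes flanking this group, Rem1, a small GTPase, was at 6.29 and 5.61 in rsl males, 5.21 and 5.19 in wild type males and 4.89 to 5.21 in the female pools, a far smaller range than that of Defb29 and Defb21.

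The 2 groups on chromosome 8 behaved unlike each other. The first, from 19198704 to 19497775, holds Defb4, Defb6, Defb5, Defb3, Defb8 and Defb7, and 0 of its 6 members was above background in any pool. Defb3 and Defb4 are the beta-defensins that airway and other epithelia are known to induce on infection. The second group, from 21776555 to 21948622, holds Defb1, Defb2, Defb10, Defb9, Defb11, Defb15, Defb35 and Defb13, and 8 of 8 were at least 1 log2 unit above background in at least 1 male pool. A probe set without signal gives no level, so the first group is not shown to lack RNA.

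Within the second group, Defb1 and Defb2 were as bright in wild type male 1 as in the rsl male pools. Defb1, the constitutive beta-defensin of kidney and airway epithelium, was at 8.18 and 7.39 in rsl males against 7.81 and 3.85 in wild type males, and 3.84 and 3.99 in rsl females against 3.90 and 3.87 in wild type females. Its other probe set ran in parallel, with 7.79 and 6.99 in rsl males, 7.37 and 4.06 in wild type males and 3.99 to 4.22 in the female pools. Defb2, known from inflamed airways, was at 10.11 and 9.17 in rsl males against 9.77 and 3.59 in wild type males, and 3.87 and 3.91 in rsl females against 3.65 and 3.69 in wild type females. For either gene the signal of wild type male 1 lay between those of the rsl male pools, and that of wild type male 2 was at the level of the female pools.

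In wild type male 1, Defb10 lay within the range of the rsl male pools, and Defb9 and Defb11 lay above it. Defb10 was at 7.28 and 5.32 in rsl males against 7.04 and 3.61 in wild type males, and 3.57 and 3.77 in rsl females against 3.57 and 3.60 in wild type females. Defb9 was at 4.24 and 3.97 in rsl males against 6.37 and 2.89 in wild type males, and 2.80 and 2.74 in rsl females against 2.87 in both wild type female pools. Defb11 was at 7.87 and 7.08 in rsl males against 8.79 and 3.38 in wild type males, and 3.42 and 3.41 in rsl females against 3.38 and 3.46 in wild type females. Wild type male 1 thus held the highest signal of all 8 pools for Defb9 and Defb11. The Defb11 probe set is of a type that can also bind transcripts of related genes, so its value may not be of Defb11 alone.

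Defb15, Defb35 and Defb13, at the far end of the group, lay below the range of the rsl male pools in wild type male 1. For Defb13 this was by little, with 5.01 against 5.15 in rsl male 2. Defb15, an epididymal beta-defensin, was at 11.16 and 10.43 in rsl males against 7.39 and 4.15 in wild type males, and 4.07 and 4.24 in rsl females against 3.97 and 3.80 in wild type females. Defb35 was at 10.17 and 9.17 in rsl males against 5.78 and 3.78 in wild type males, and 3.88 and 3.75 in rsl females against 3.88 and 3.79 in wild type females. Defb13 was at 6.29 and 5.15 in rsl males against 5.01 and 3.88 in wild type males, and 3.86 and 3.75 in rsl females against 3.86 and 3.87 in wild type females. For these 3 genes both rsl male pools exceeded both wild type male pools. Genes flanking the group did not share the range: Fam90a1a, 10.1 kb away, stayed between 3.11 and 3.63, and Defa39, an alpha-defensin gene 72.9 kb away, was at 5.23 and 4.51 in rsl males, 4.71 and 4.02 in wild type males and 4.17 to 4.33 in the female pools.

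Defb42, a beta-defensin of the epididymis, was bright in 3 male pools. It was at 12.70 and 12.18 in rsl males against 11.57 and 5.56 in wild type males, and 3.89 and 3.79 in rsl females against 3.77 and 3.76 in wild type females. All 4 male pools were above background, and of the 4 female pools rsl female 1 was, by little. The other Defb42 probe set lay between 3.11 and 3.39 in all 8 pools, below background, so the probe sets of this gene disagree. The flanking genes Wdfy2 and Ctsb ranged from 7.65 to 7.97 and from 10.96 to 11.69 over the 8 pools.

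**Figure D2:**
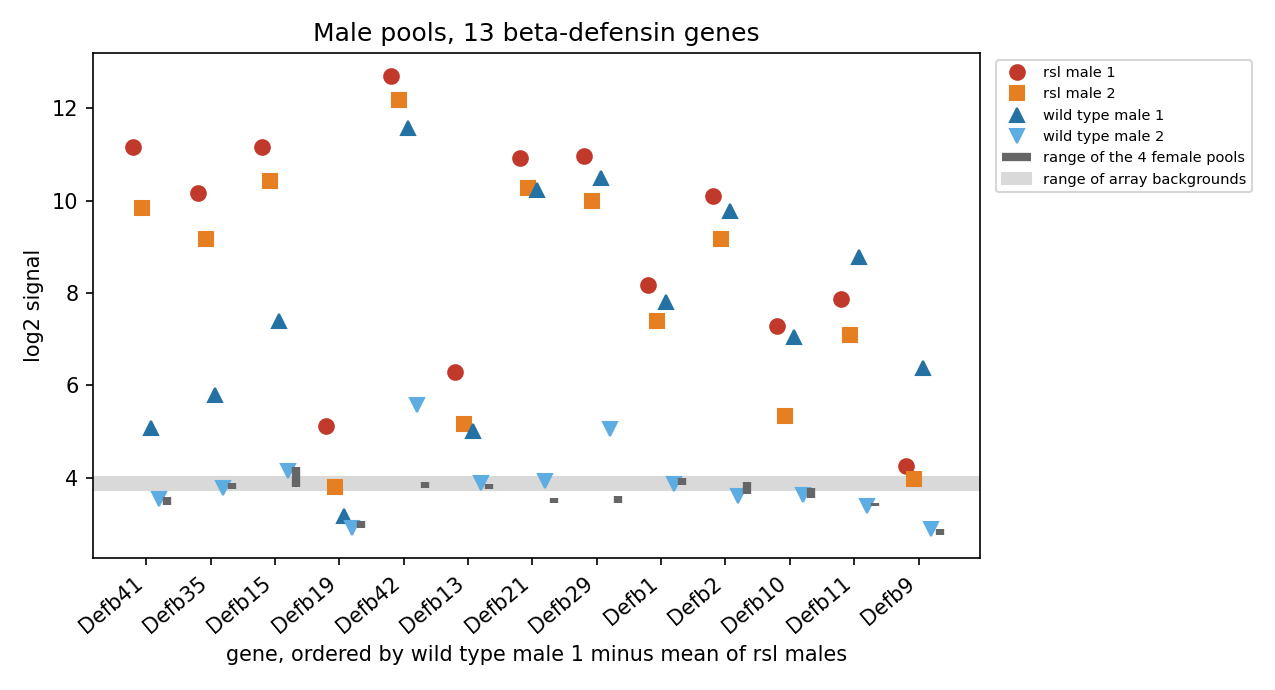
Log2 signal of the 13 beta-defensin genes that reached 1 log2 unit above background in some pool, in the 4 male pools (symbols), with the range of the 4 female pools (short dark bars) and of the array backgrounds (grey band). Genes are ordered by the difference between wild type male 1 and the mean of the rsl male pools, from -5.43 for Defb41 to 2.26 for Defb9.

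The 13 genes thus fell on either side of the rsl level in wild type male 1. Wild type male 1 minus the mean of the rsl male pools was -5.43 for Defb41, -3.89 for Defb35, -3.41 for Defb15 and -1.29 for Defb19. It was within 1 log2 unit of 0 for Defb42, Defb13, Defb21, Defb29, Defb1, Defb2 and Defb10, from -0.87 to 0.73. It was 1.31 for Defb11 and 2.26 for Defb9. The difference is that of a single pool and carries no test. Rsl male 1 exceeded rsl male 2 in all 13 genes, which were picked by their level.

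The comparison of rsl with wild type males asks which members differed between the male pools of the 2 strains. Defb41 and Defb35 were higher in rsl males, and 0 members were lower. Defb41 averaged 10.50 ± 0.92 in rsl males and 4.30 ± 1.09 in wild type males (SD, n = 2 each), a difference of 6.20 ± 0.54 (SE, log2; limma, Benjamini-Hochberg adjusted p = 0.00913). Defb35 averaged 9.67 ± 0.71 in rsl males and 4.78 ± 1.42 in wild type males (SD, n = 2 each), a difference of 4.89 ± 0.60 (SE; limma adjusted p = 0.0242). Called members were thus 2 of 20, against 1.32% of all probe sets tested, of which 0.491% were higher and 0.828% lower.

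Differences of similar size did not pass where the wild type male pools disagreed. Defb15 differed by 5.03 ± 0.89 (SE, log2) with a limma adjusted p of 0.0521. Defb42 differed by 3.88 ± 1.61 (adjusted p = 0.237) and Defb21 by 3.53 ± 1.70 (adjusted p = 0.296), with wild type SDs of 4.25 and 4.46. The differences of Defb2, Defb29, Defb1, Defb19, Defb11, Defb13 and Defb10 lay between 0.98 and 2.96 with adjusted p from 0.105 to 0.655, and that of Defb9 was -0.53 ± 0.93. Over the 20 members the median difference was 1.33 and 18 were positive, beside a median of 0.003 over all probe sets. These counts include the 6 members of the first chromosome 8 group, which were below background in all 8 pools. Their differences of -0.06 to 0.21 have no resolved sign.

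The count depended on which pool stood for wild type males. Without wild type male 1 it was 10 of 20, against 3.15% of all probe sets, adding Defb15, Defb42, Defb21, Defb29, Defb1, Defb2, Defb11 and Defb9. Without wild type male 2 it was 4, against 0.251% of all probe sets, with Defb15 higher and Defb9 lower beside Defb41 and Defb35, and Defb29, Defb1, Defb2, Defb10 and Defb11 had differences of -0.01, -0.03, -0.13, -0.73 and -1.31. It was 5 without rsl male 2, where 15.5% of all probe sets were called. It was 0 without any 1 of the 4 female pools, where 0.0688% to 0.0977% of all were called, which enter through the shared estimate of the spread.

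**Figure D3:**
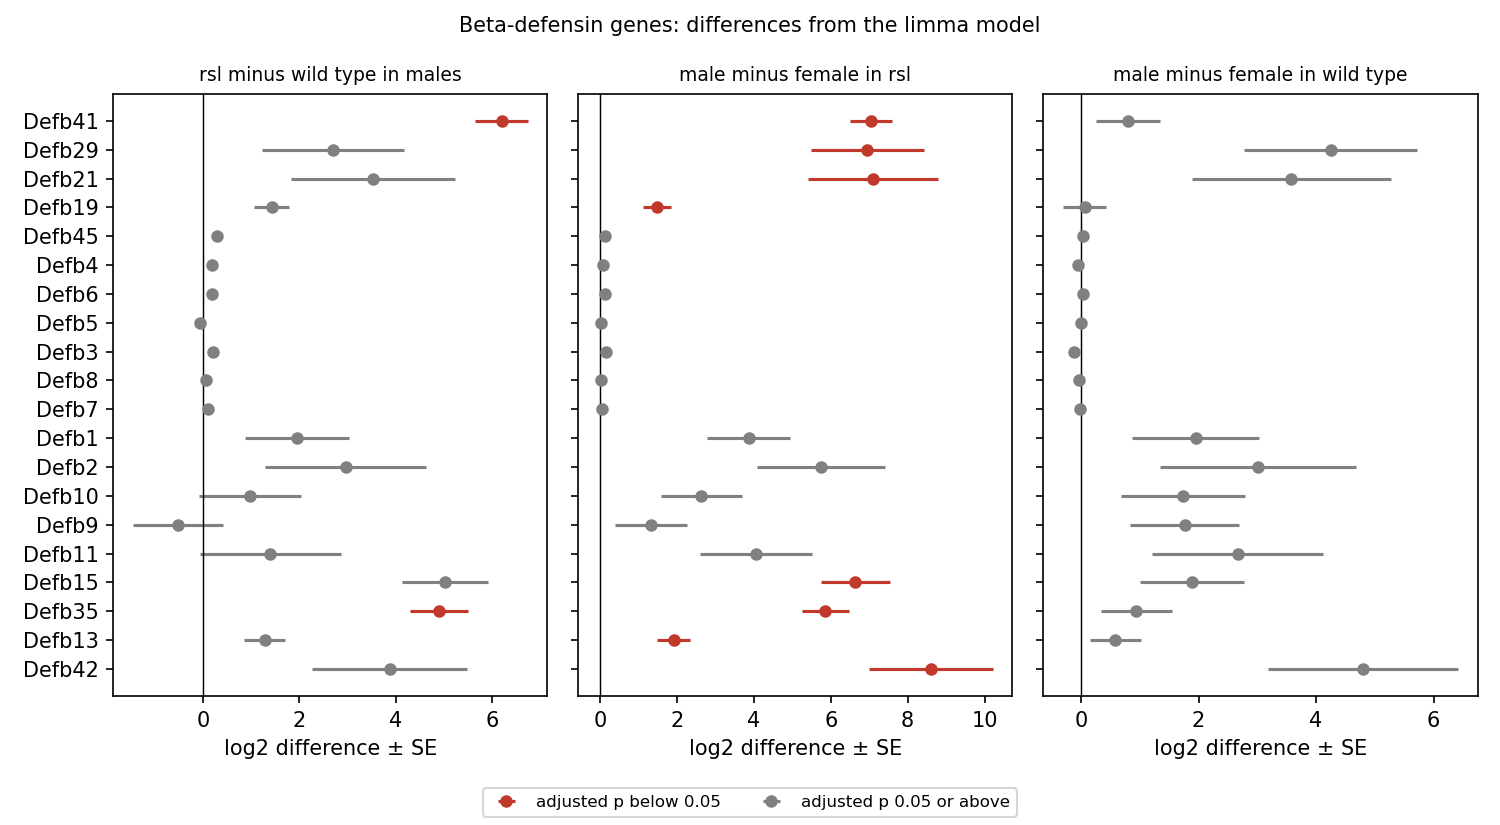
Difference ± SE (log2, limma) of the 20 beta-defensin genes for rsl minus wild type in males, male minus female in rsl and male minus female in wild type, with adjusted p below 0.05 in red. Red points number 2 in the left panel, 8 in the middle panel and 0 in the right panel.

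Between the sexes, members were called in rsl mice and not in wild type mice, and the test of that difference itself is the interaction term. In rsl mice 8 of 20 members were higher in males and 0 lower, against 12.3% of all probe sets called, 4.73% higher and 7.61% lower. Defb42 was higher in males, with 12.44 ± 0.37 in rsl males and 3.84 ± 0.08 in rsl females (SD, n = 2 each; difference 8.60 ± 1.61, SE; limma adjusted p = 0.0194). Because rsl female pools were at or below background for them, the fold is a lower bound for 4 of the 8 genes, computed against the background of the female arrays. It was at least 103.1-fold for Defb21 (limma adjusted p = 0.0395), at least 96.0-fold for Defb41 (adjusted p = 0.0014), at least 94.3-fold for Defb29 (adjusted p = 0.0278) and at least 1.46-fold for Defb19 (adjusted p = 0.0444). Defb15 was higher in males by 6.64 ± 0.89 (SE, log2; limma adjusted p = 0.00751). Its rsl female values of 4.07 and 4.24 lay only a little above the backgrounds of 3.82 and 4.01, so no fold is given. Defb35 and Defb13 differed by 5.86 ± 0.60 and 1.92 ± 0.43 (SE, log2), with limma adjusted p of 0.00339 and 0.0338. For Defb42, Defb35 and Defb13 only 1 of the 2 rsl female pools was above background, so no fold is given. For Defb19 only 1 of the 2 rsl male pools was above background, so its lower bound rests in part on an unresolved value.

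Defb1, Defb2, Defb11, Defb10 and Defb9 did not pass in rsl mice. Their differences between rsl males and rsl females were 3.87, 5.75, 4.06, 2.63 and 1.33, with limma adjusted p of 0.0623, 0.0697, 0.124, 0.161 and 0.416. The median over the 20 members was 2.27, beside -0.03 over all probe sets. The count was 12 without either wild type male pool, against 12.6% of all probe sets, and 4 without rsl male 1, against 7.20%. It was 3 without either wild type female pool, against 6.02%. Without rsl female 1 or rsl female 2 it was 2, Defb41 and Defb35, against 1.59% and 1.27% of all probe sets.

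In wild type mice 0 of 20 members passed between the sexes, against 3.83% of all probe sets. An unadjusted p below 0.05 was found for 2 of 20, against 17.4% of all probe sets. These were Defb42, with 8.56 ± 4.25 in wild type males and 3.77 ± 0.002 in wild type females (SD, n = 2 each; difference 4.80 ± 1.61, SE; limma adjusted p = 0.183), and Defb29, with a difference of 4.25 ± 1.47 (adjusted p = 0.196). The SD of the wild type males rests on the gap between their pools. Without wild type male 2, 9 members were called, against 3.20% of all probe sets: Defb42, Defb29, Defb21, Defb2, Defb11, Defb1, Defb15, Defb9 and Defb35. Without wild type male 1, only Defb42 was called, against 2.38% of all probe sets.

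Among females no member passed the test between the strains. The comparison of rsl with wild type females called 0 of 20, against 0.209% of all probe sets, with differences from -0.10 to 0.27. Defb45 had the 1 unadjusted p below 0.05, against 10.995% of all probe sets (0.21 ± 0.08, SE; limma adjusted p = 0.391). Most other values in females were at or near background, where a difference would not be detectable. The interaction term, which asks whether the strain difference depends on sex, called 0 of 20 members, against 0.0577% of all probe sets. An unadjusted p below 0.05 was found for 4 of 20, against 10.8% of all probe sets. Male minus female strain difference was 6.25 ± 0.77 (SE) for Defb41 (limma adjusted p = 0.0679), 4.92 ± 0.85 for Defb35 (0.136), 4.75 ± 1.26 for Defb15 (0.275) and 1.42 ± 0.52 for Defb19 (0.396). Without wild type male 1, 10 members were called in it, against 0.704% of all probe sets.

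The mean of the epididymis markers was also highest in the rsl male pools. Some single markers were highest in wild type male 1, such as Crisp1 at 12.60 and Wfdc15b at 11.27. The 18 measured genes of 20 listed, which code for secreted lipocalins, cystatins, proteases and sperm-coating proteins of that duct, averaged 11.11 and 10.41 in rsl males against 6.90 and 4.84 in wild type males, and 4.12 and 4.05 in rsl females against 3.87 and 3.82 in wild type females. In rsl males 18 of 18 were above background in either pool, in wild type males 15 of 18 in either, and in the female pools 7 to 12 of 18. By at least 1 log2 unit it was 17 and 17 in rsl males against 9 and 9 in wild type males, and 3 and 2 in rsl females against 1 and 1 in wild type females. The wild type male pools thus had the same count of markers by this margin, but not the same level, with means of 6.90 and 4.84. By the same margin they held 12 and 2 beta-defensins. The part of the epididymis markers in the beta-defensin result was not tested. Between the strains limma called 8 of the 18 higher in rsl males, or 17 without wild type male 1. Between the sexes it called 16 higher in rsl males, or 8 without either rsl female pool and 10 without either wild type female pool, and 0 in wild type mice, or 7 and 9 without wild type male 1 and 2.

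The wild type male pools each held only some of these markers. Lcn5, Crisp1 and Adam7, at 12.59, 12.60 and 11.04 in wild type male 1, were near their rsl male levels of 12.71 to 13.02, 12.25 to 12.40 and 12.04 to 12.34. Lcn8, Cst11 and Adam28 were at 3.84, 3.43 and 3.54 in that pool, against 12.19 to 12.84, 11.02 to 11.81 and 9.36 to 10.64 in rsl males. Lcn8 is known from the initial segment, the part of the epididymis next to the testis, and Crisp1 from the stretches that follow. Wild type male 2 held Gpx5, the secreted glutathione peroxidase, at 7.87, Crisp1 at 7.14 and Lcn5 at 6.04, each below its rsl male levels, and Lcn8, Lcn9, Cst8 and Rnase10 were higher there (5.02 to 5.56) than in wild type male 1 (3.84 to 4.32). Other markers lay in between in wild type male 1, such as Lcn12 at 7.41, against 10.76 and 9.53 in rsl males.

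**Figure D4:**
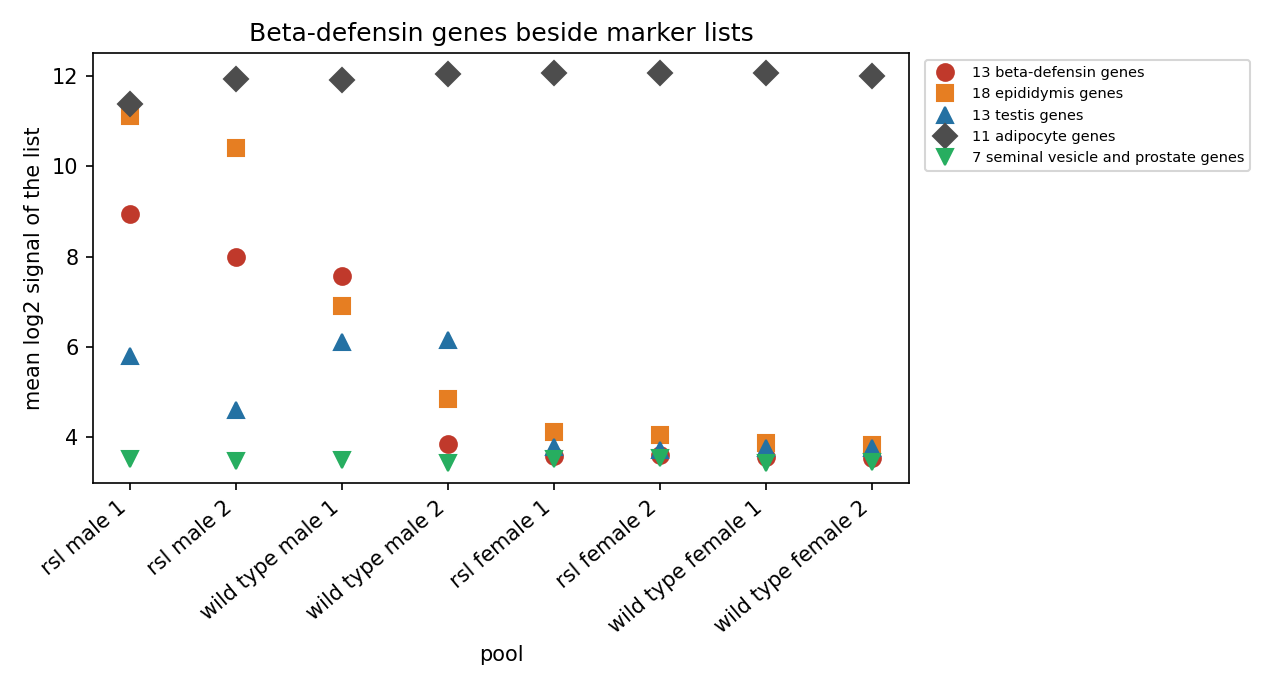
Mean log2 signal in each of the 8 pools of the 13 beta-defensin genes that reached 1 log2 unit above background in some pool, 18 epididymis, 13 testis, 11 adipocyte and 7 seminal vesicle and prostate genes. The beta-defensin and epididymis means are highest in the rsl male pools, intermediate in wild type male 1 and lowest in the females, and the testis mean does not follow that order. The 13 beta-defensin genes reached the margin in male pools only, so their low mean in females follows from that choice.

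Markers of other male organs did not follow the beta-defensins. The 13 testis genes averaged 5.80 and 4.61 in rsl males, 6.10 and 6.16 in wild type males and 3.73 to 3.78 in the female pools, so wild type male 2, with few beta-defensins, had the highest testis mean. The 7 seminal vesicle and prostate genes averaged 3.42 to 3.54 in all 8 pools, and at most 3 were above background in a pool. The 10 keratin and epithelial genes averaged 7.91 and 7.09 in rsl males against 6.91 and 6.01 in wild type males, and 5.71 and 5.73 in rsl females against 5.58 and 5.57 in wild type females, an order that does follow them. Among these, Cdh1, the epithelial cadherin, was at 9.43 and 8.53 in rsl males against 8.38 and 6.31 in wild type males, and 4.59 and 4.53 in rsl females against 3.07 and 3.04 in wild type females. Not every gene of this list shared the order of its mean. Krt10 was at 5.90 and 5.69 in rsl males against 6.17 and 6.43 in wild type females. Krt19 was at 8.06 and 7.96 in wild type males, below the 8.23 to 8.79 of the female pools. Trp63 was at 3.72 in wild type male 2, below the 4.41 to 4.79 of the female pools. The difference between 3′ and 5′ probe sets, a sign of RNA breakdown, was 0.79 and 1.03 for Gapdh in rsl males, against 0.68 and 0.71 for wild type males. For actin it was 1.16 and 1.20 in rsl males, against 1.06 and 0.95 for wild type males. The part of these values in the beta-defensin result was not tested.

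Over the 8 arrays, the genes whose signal ran most like that of Defb42 among 20717 genes were Adam7 (r = 0.998), Lcn5 (0.997), Spink8 (0.996), Epp13 (0.995) and Tox3 (0.995). For Defb15 they were Gfra1, Lrcol1, Alpl, Rhcg and Foxi1, each with r = 0.996. Defb42 and Defb15 were picked by their mean signal over the rsl male pools, which serves as a choice only and does not rank the genes, since probe sets differ. The profiles differ in wild type male 1: Adam7, Lcn5, Spink8 and Epp13 were at 11.04 to 12.59 there, near their rsl male levels, while Lrcol1 was at 6.00 there against 10.11 and 8.85 in rsl males, and Foxi1, a transcription factor of acid-secreting epithelial cells, at 5.19 against 6.92 and 6.25. The arrays share sex and strain in these correlations, which are descriptions and have no p.

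Of other antimicrobial genes, some were called in either direction. Of 22 measured of 24 listed, 1 rose and 3 fell in rsl males against wild type males. Lcn2, an iron-trapping lipocalin of epithelia and neutrophils, rose by 2.02 ± 0.24 (SE, log2; limma adjusted p = 0.0226), while S100a8, the calprotectin subunit, fell by 1.73 ± 0.16 (adjusted p = 0.0109), Wfdc21 fell by 0.91 ± 0.12 (adjusted p = 0.0265) and Camp, the cathelicidin, fell by 0.72 ± 0.08 (adjusted p = 0.0155). Leaving out wild type male 1 gave 4 higher and 5 lower, wild type male 2 gave 1 and 1, rsl male 1 gave 1 and 2, rsl male 2 gave 2 and 5, either rsl female pool gave 0 and 0, and either wild type female pool gave 0 and 1. In rsl females Lcn2 was at 7.55 and 7.06, against 3.64 and 3.40 in wild type females, where 0 beta-defensins passed the test. The epididymal protease inhibitors Eppin and Wfdc15b, which are also on the epididymis list, were at 10.24 and 9.48 and at 11.09 and 10.56 in rsl males, against 8.96 and 3.97 and 11.27 and 5.45 in wild type males. Camp and S100a8, which neutrophils also express, reached at most 4.74 and 5.93 in any pool. The mean in a pool ran from 4.19 to 4.96 for the 7 measured neutrophil genes and from 4.54 to 5.34 for the 7 female reproductive tract genes.

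Among 7 measured receptors that beta-defensins are known to bind, Ccr2, a chemokine receptor of monocytes, fell in rsl males against wild type males (-1.13 ± 0.16, SE, log2; limma adjusted p = 0.0336), and 0 rose. Ccr2 was at 6.48 and 6.89 in rsl males against 7.64 and 7.98 in wild type males, and 7.13 and 7.21 in rsl females against 7.78 and 7.92 in wild type females. Tlr4 was lower in rsl males than in rsl females (-0.98 ± 0.20; adjusted p = 0.0243). Both calls were lost without any 1 of the female pools and without rsl male 1, and that of Ccr2 also without wild type male 2. Ccr2 is also 1 of the 7 measured macrophage genes of 8 listed, which averaged 8.38 and 8.74 in rsl males against 9.04 and 9.35 in wild type males, and 8.89 and 9.05 in rsl females against 9.34 and 9.30 in wild type females. Between the strains in males all 7 differences were negative, from -1.13 to -0.28 with a median of -0.56, and Ccr2 was the 1 called. Leaving out wild type male 1 gave 3 calls and leaving out rsl male 2 gave 5, while each of the other single pools gave 0. Between the sexes of rsl mice 1 was called, Cd163, a scavenger receptor, lower in males (-1.18 ± 0.24, SE; limma adjusted p = 0.0238). That count was 4 without rsl male 2 and 0 without any 1 of the female pools. The part of the macrophage genes in the values of Ccr2 and Tlr4 was not tested. Defa3 and Defa29, the measured genes of the alpha-defensin and other defensin-like genes listed, had 0 calls in limma, with the lowest adjusted p at 0.138.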

How the data were processed

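Each deposited value is the log2 signal of a probe set on an Affymetrix mouse expression array, which the authors normalized with RMA (version not stated), per the submitters' processing notes; cRNA was made from 400 ng of pooled RNA, per the labels. A deposited annotation table, in which the unit is other, gave symbols, accessions and titles as the authors' annotation text; its 8 value columns match no label and were not used. Of 45141 probe sets, 104 controls were set aside and 45037 tested. RefSeq names came by accession for 34512, by symbol for 920 and by synonym for 177, the deposited symbol was kept for 2743, 15 had several genes and 6670 none.

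Background was the top of 22 non-specific controls with GC counts 3 to 24, the control of GC count 25 being left out after its values were seen. A model with 1 coefficient per group was fitted with limma 3.58.1 in R 4.3.3 on all 8 arrays (4 residual and 3 prior degrees of freedom), two-sided, Benjamini-Hochberg adjusted over all probe sets, threshold 0.05, and was tested on simulated data. A fold is given as "at least" where all arrays of the dimmer group lay at or below background. Arrays give no read depth, and their number limits the precision.

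The members and the 12 gene lists were chosen with earlier results of these data known. The list of transcription regulators is not reported here. Every member may be named, with list genes past the threshold or else up to 4 with the smallest p, and the 5 genes most correlated with each of 2 members. Alternatives were the samples in the model, a replicate block, an intensity trend, arrays left out or weighted, quantile normalization, centring on the array median, averaging of a gene's probe sets, a filter on dim ones, RefSeq names and other backgrounds.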

Additional observations from a re-analysis of the deposited data

How the results depend on the processing

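Quantile normalization, median centring, gene means, a filter on dim probe sets and RefSeq names left each count of called members within 1.5 times. For rsl against wild type males, a fit of the 2 groups alone called 0 of all 45037 probe sets, so its count of members could only be 0. In rsl against wild type males the count of 2 became 0 in a fit of the 2 groups alone, 13 (8.53% of all probe sets) when the pools numbered 1 of both male groups were left out, and 0 to 10 with single arrays left out (0.0688% to 15.5%). In rsl mice the sex count of 8 became 13 (14.2%) with those 2 pools left out, and 2 to 12 with single arrays left out (1.27% to 22.2%). In wild type mice the sex count of 0 became 3 (9.69%) with those 2 pools left out, and 0 to 9 with single arrays left out (0.331% to 8.11%). The interaction count of 0 became 1 with an intensity trend (Defb41, limma adjusted p = 0.0465), 1 with array weights (Defb41, 0.0298), 13 (4.70%) with those 2 pools left out, and 0 to 10 with single arrays left out (0.00888% to 6.35%). With those 2 pools out, each male group is 1 array, assumed to vary like the female pools, from which the spread comes. The female strain count was 0 in each. Of all probe sets, the interaction term called 0.091% with the intensity trend and 0.169% with array weights. With arrays left out, the strain difference in males ran from -0.00893 to 5.41 for Defb29, -0.0258 to 3.94 for Defb1, -0.13 to 6.05 for Defb2, -0.73 to 2.69 for Defb10, -2.26 to 1.21 for Defb9 and -1.31 to 4.10 for Defb11, and the sex difference in wild type mice from -0.0612 to 0.193 for Defb19, -0.0315 to 3.93 for Defb1, -0.0788 to 6.10 for Defb2, -0.042 to 5.37 for Defb11 and -0.0574 to 1.94 for Defb35. Without both of those pools the strain difference of Defb9 was 1.08, and the sex differences in wild type mice of Defb19, Defb1, Defb2, Defb11 and Defb35 were -0.0612, -0.0315, -0.0788, -0.042 and -0.0574. Where fewer arrays entered, the samples, the degrees of freedom and the shared estimate of the spread changed together, and their parts were not tested. For the trend and weights the cause was not tested. Of the single-gene values under alternatives, 622 kept direction and side of the threshold, 69 passed it, 41 lost it and 18 turned sign.

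With the replicate block the count for strain in males was 3 (Defb15 added, limma adjusted p = 0.0404), against 2.30% of all probe sets. For sex in rsl mice it was 9 (Defb1 added, limma adjusted p = 0.0473), against 13.3%. The other comparisons had 0, against 0.158% for strain in females, 3.75% for sex in wild type mice and 0.0488% for the interaction. Deviations of same-numbered arrays correlated at 0.346 between wild type and rsl males and from -0.048 to 0.115 otherwise, so the numbers were not taken as pairs.

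Members above background depended on its definition in dim pools. Against all non-specific controls the count was 0 in wild type male 2 and in the 4 female pools. At 1 log2 unit above background it was 2 in wild type male 2 and 0 in each female pool. Against the 95th percentile of the controls it was 4 in rsl female 2 and 3 in wild type female 2. A member near background has a level that these arrays do not resolve.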
